A study of Rattus norvegicus with 18 samples.

Results

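Phospholipases A2 and D are enzymes that cut membrane phospholipids, and 7 rat genes for them were measured in the kidney of 2 related strains: Pla2g12a, Pla2g2a, Pla2g5, Pla2g4a and Pla2g6 for phospholipase A2, and Pld1 and Pld2 for phospholipase D. Every probe set annotated to 1 of these genes was taken, which gave 14 of the 31042 probe sets of the array and 7 of the 14217 genes that a probe set names alone. Pld1 had 5 probe sets, Pla2g6 had 3, Pld2 had 2, and the other genes had 1 each. None of the 14 named a further gene. The genes were chosen by enzyme family with the strain comparison of these arrays already known, and Pla2g12a stood among its calls. Their strain differences are therefore given as a description, with no p-value, and nothing is read from how many of them were called.

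The samples were whole kidneys of 18 rats, 1 Affymetrix Rat Genome 230 2.0 array for each. Of these, 9 were Dahl S rats of the inbred salt-sensitive strain SS/Jr. The other 9 were S.SHR(2), a congenic strain made from SS/Jr and the spontaneously hypertensive rat (SHR/NHsd). By its name it carries a segment of SHR chromosome 2, and both groups share the SS/Jr background. Male rats of 4, 12 and 20 weeks, 3 per strain each time, are what the design text names, but an age is labelled for 2 rats only, both Dahl S on a diet with 0.3% NaCl. A congenic strain differs from its parent over a whole segment, so a difference between the strains cannot be tied to a single gene of it. In the order of deposit the arrays form 3 runs of 6, each with 3 Dahl S and then 3 S.SHR(2) rats. These runs are called deposit blocks here. They are a property of the record and were not read as ages, although the rat labelled 4 weeks lies in the first and the rat labelled 12 weeks in the second.

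Phospholipase A2 enzymes release a fatty acid, often arachidonic acid, and leave a lysophospholipid. Secreted forms act outside the cell or in vesicles and need calcium, the cytosolic form prefers phospholipids that carry arachidonic acid, and the calcium-independent form serves membrane turnover. Phospholipase D cuts phosphatidylcholine into choline and phosphatidic acid, a lipid messenger, and is switched on by small GTPases and protein kinase C. In the kidney the arachidonic acid freed by phospholipase A2 feeds the prostaglandins that act on blood flow, renin release and salt and water transport.

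Pla2g12a encodes a secreted phospholipase A2 and showed the widest separation of the strains among the 7 genes, so the DNA just before its start is shown as the sequence context of its level. The 250 bases run along the plus strand at chr2:221110472-221110721 of GRCr8, a reference assembly of neither strain studied, and come from RefSeq. Capitals mark the single E-box, CACGTG, whose first base lies at position -123 from the start of the gene.

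Pla2g12a: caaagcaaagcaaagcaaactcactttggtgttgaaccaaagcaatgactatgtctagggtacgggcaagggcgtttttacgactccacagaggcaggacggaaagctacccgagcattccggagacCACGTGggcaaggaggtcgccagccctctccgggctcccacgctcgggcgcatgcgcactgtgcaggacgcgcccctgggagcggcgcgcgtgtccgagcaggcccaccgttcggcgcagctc

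The window holds 62.8% G and C bases and 23 CG pairs, against 45.2% and 5 pairs in the window of Pld1. Windows were found for 7 of the 7 genes. Both strands were searched for the E-box written above. The same was done for the GC box, spelled GGGCGG. The CCAAT box was searched by the letters of its name, and the TATA box as TATAAA. No match of one motif overlapped a match of another. An E-box stood in the windows of Pla2g12a and Pla2g6, and in 5.59% of the 33469 windows of that length. GC boxes stood in those of Pla2g6 and Pld2 (30.5% of all windows), CCAAT boxes in those of Pla2g2a, Pla2g5 and Pla2g6 (34.0%), and a TATA box in that of Pla2g4a (12.9%). The window of Pld1 had no match to these letters. Each window ends at 1 annotated start of its gene, and a gene can have several. Those of Pld1, Pla2g5 and Pla2g6 lie within the annotated span of their own gene and that of Pld2 overlaps its own, so for these genes the window is not the DNA before the whole gene. These are matches of letters in the reference, and the sequences of the strains themselves were not analysed here.

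The deposited values are intensities on a linear scale with 1 decimal. On every array their mean after trimming was between 150.046 and 150.054, and no value of the 14 probe sets was 0. Arrays correlated at 0.942 to 0.986, with a median of 0.980 within a deposit block and 0.964 between blocks. The ratio of the 3′ to the 5′ GAPDH control, a sign of RNA quality, was 1.19 to 2.51, highest in S.SHR(2) replicate 1 and next in Dahl S replicate 5 at 2.04. The summed deposited intensity of kidney markers was high in all arrays, at 32323 to 37026 in the first 2 blocks and 24539 to 28432 in the third. After quantile normalisation, though, Umod and Lrp2 stood 0.23 and 0.12 above the first block on the log2 scale. By gene on that scale, the third block against the first gave 2 of 8 lower (Aqp2 at -0.69 and Slc34a1 at -0.19). Another 2 were higher, Slc12a3 at 0.77 and Umod. Markers of the injured tubule rose from 2209 to 4519 in the first block to 7297 to 12937 in the third, and 6 of 6 passed the block test. With the third block set against the first alone, 5 of those 6 were higher, as were 6 of 8 macrophage markers tested. In that contrast 5 of 6 endothelial markers were lower, and the other, Vwf, was higher by 1.41 on the log2 scale. Of all probe sets tested, 20.7% were higher and 20.4% lower. The neutrophil list had 0 members bright enough to test. By limma none of the marker lists held a strain call, with or without the block as a covariate. Without it none of their tested members reached an unadjusted p under 0.05, against 4.02% of all probe sets tested. With it 4 of 6 injured tubule and 2 of 8 macrophage markers did, against 9.27% of all probe sets tested. The median strain differences of the injured tubule and macrophage lists were -0.33 and -0.19, lower in S.SHR(2). The part of these cells in the results below was not tested. In whole tissue, fewer cells of a type and less RNA per cell cannot be told apart.

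Comparisons of strain, of deposit block and of strain by block across all probe sets give the background for the 14. After the dimmest 40% were left out, 18625 probe sets were tested with limma, 9 of the 14 among them. Strain was called (adjusted p under 0.05) for 23, or 0.123% of those tested, and for 1 of the 9, that of Pla2g12a. With the deposit block as a covariate it was called for 92, or 0.494%, and for 2 of the 9, those of Pla2g12a and the brightest of Pld1. The deposit block was called for 9336, or 50.1%, and for 4 of the 9, a share close to the background. The strain difference depended on the block for 1 probe set, or 0.00537%, which names no gene, and for 0 of the 9. At an unadjusted p under 0.05 that last test gave 1 of the 9 and 1221 of all, or 6.56%. The 9 had a median strain difference of 0.20 on the log2 scale, against 0.00 over all tested. Of the 9, 7 were higher in S.SHR(2), against 51.5% of all tested. These 7 belong to 3 genes, Pla2g6, Pld1 and Pla2g12a, and probe sets of a gene are not independent. The genes were also chosen with this contrast known, so nothing is read from the median or the direction.

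Pla2g12a was higher in S.SHR(2) in each deposit block. Its probe set, 1373810_at, read 79.1, 114.8 and 105.4 intensity units in the Dahl S rats of the first block, against 279.7, 236.4 and 196.0 in S.SHR(2). In the second block the values were 109.7, 70.2 and 105.0 against 224.9, 234.5 and 228.9, and in the third 107.6, 99.8 and 102.2 against 232.6, 249.3 and 214.3. The highest Dahl S rat, at 114.8, lay far below the lowest S.SHR(2) rat, at 196.0. Such separation over all 18 arrays was seen for 21 probe sets, or 0.113% of those tested. The means were 99.3 ± 14.8 and 233 ± 23.1 (SD, n = 9 each), a difference of 1.14 ± 0.087 (SE) on the log2 scale, or 2.20-fold. This is a description, as the gene was selected on this contrast. The gene has 1 probe set only, so no second one could be set beside it. The probe sequences were not compared with those of the strains.

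Within the deposit blocks the difference was 1.16 ± 0.19, 1.17 ± 0.18 and 1.09 ± 0.072 (SE, 3 rats of each strain). These values come from the arrays the gene was selected on, and that the strains were separate in each block follows from their separation over all 18. Ranges separate in the same direction in each block were found for 59 probe sets, or 0.317%, and for this one and 1370530_a_at of Pld1, from which nothing is read. The level over the blocks was not part of the selection. The second and the third block stood -0.03 and 0.01 from the first, and the block test did not pass (limma adjusted p = 0.94).

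**Figure D1:**
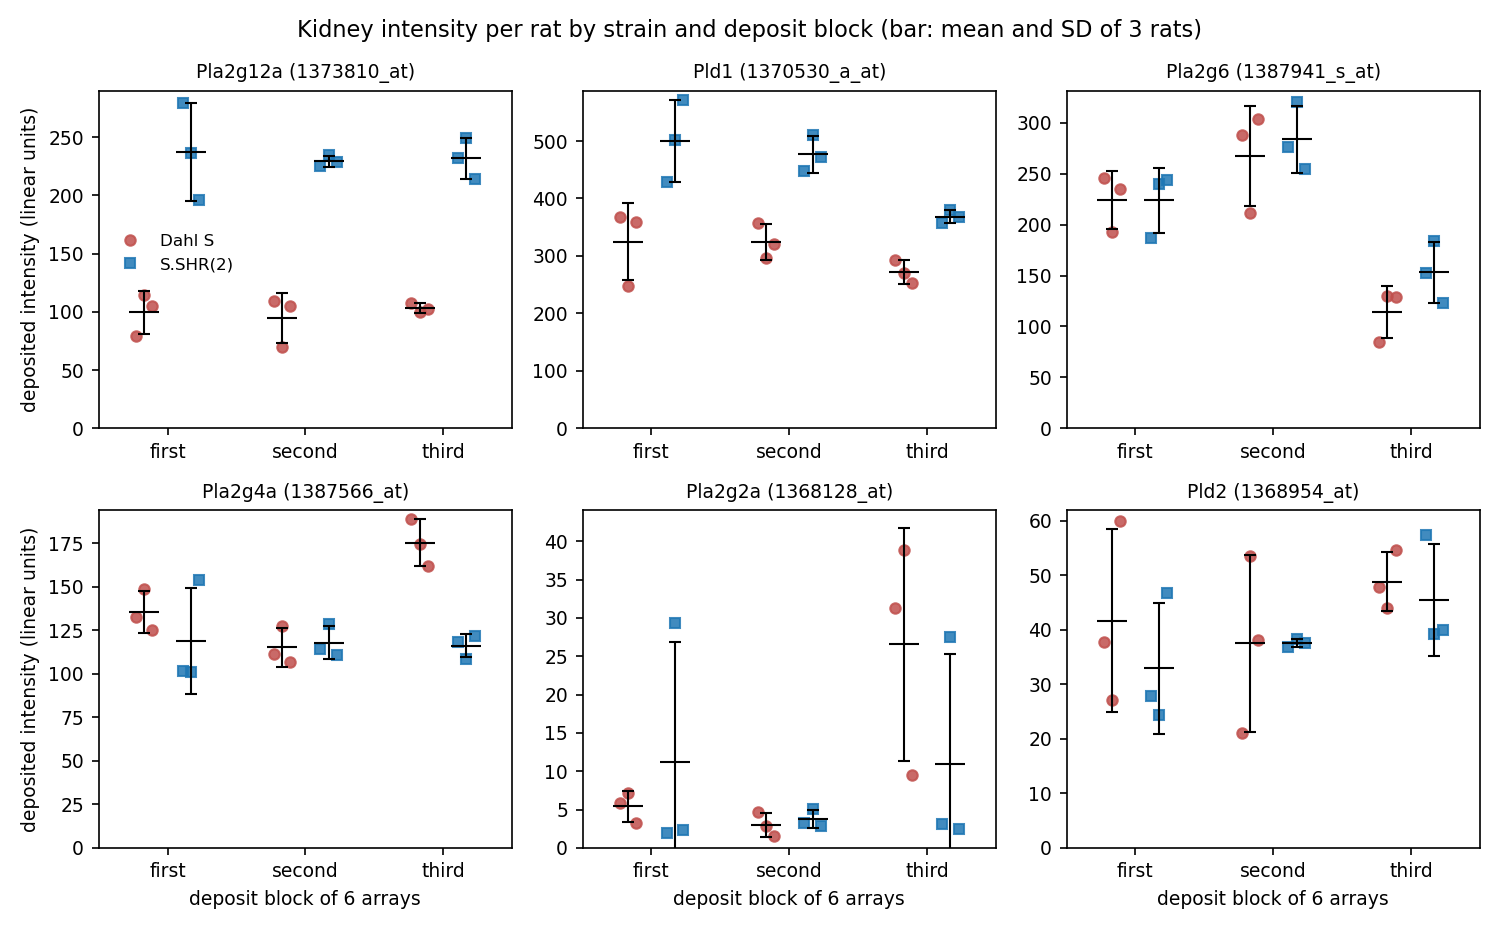
Deposited intensity (linear axis from 0) of 1 probe set each of Pla2g12a, Pld1, Pla2g6, Pla2g4a, Pla2g2a and Pld2 in the 18 rats, by deposit block; points are rats of Dahl S (circles) and S.SHR(2) (squares), and bars are the mean and SD of 3 rats. The S.SHR(2) points of Pla2g12a, 196.0 to 279.7, all lie above the Dahl S points, 70.2 to 114.8, and the points of Pla2g6 drop in the third block. Pla2g6 is drawn by 1387941_s_at, picked as its probe set of smallest p in the block test, and each other gene by its brightest.

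The other secreted enzymes were dim. Pla2g2a encodes the group IIA enzyme, an inflammatory and antibacterial phospholipase. Its probe set, 1368128_at, read 5.9, 7.2 and 3.2 in Dahl S and 2.0, 29.3 and 2.3 in S.SHR(2) in the first block. The second block held 1.5 to 5.1 throughout, and the third 31.3, 38.8 and 9.5 in Dahl S against 3.1, 27.5 and 2.4 in S.SHR(2). Only 4 arrays lay above 27, 2 of each strain, and the other 14 were at 9.5 or less. The probe set was too dim to be tested. Leaving out 1 rat moved its strain difference between -0.27 and 0.01 on the log2 scale.

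Pla2g5 encodes the group V secreted enzyme, which acts on phosphatidylcholine. Its probe set, 1370068_at, was dim and untested as well. Its intensity was 11.9 to 35.8 with a median of 24.6 in Dahl S, and 4.0 to 31.9 with a median of 21.5 in S.SHR(2). The strains overlapped over most of their range. In GRCr8 the annotated span of Pla2g5 (chromosome 5, 156324628 to 156393065) encloses the gene Pla2g2a (156359725 to 156362302), and at these levels the probe sets of neither gene separated the strains.

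Pla2g4a encodes cytosolic phospholipase A2, the calcium-regulated enzyme that frees arachidonic acid for prostaglandins. In the third block its probe set, 1387566_at, read 189.1, 174.8 and 162.1 in Dahl S and 118.3, 108.8 and 121.7 in S.SHR(2). There the strains did not overlap, with a difference of -0.48 ± 0.055 (SE) on the log2 scale. In the first block the values were 132.7, 148.7 and 125.4 against 101.6, 100.8 and 154.2, and the strains overlapped, at -0.16 ± 0.18. The second block gave 111.2, 127.6 and 106.7 against 114.1, 128.7 and 110.7, a difference of 0.02 ± 0.094. An exact permutation test of 3 against 3 rats cannot go below a two-sided p of 0.1. Separation within a single block was not counted over all probe sets, so nothing is read from it for this or any other probe set. The difference between the blocks did not pass (limma, unadjusted p = 0.050, adjusted p = 0.74), nor did the level between blocks (adjusted p = 0.11). Over all rats the means were 142 ± 28.5 and 118 ± 16.4 (SD, n = 9 each), with a difference of -0.20 ± 0.100.

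**Figure D2:**
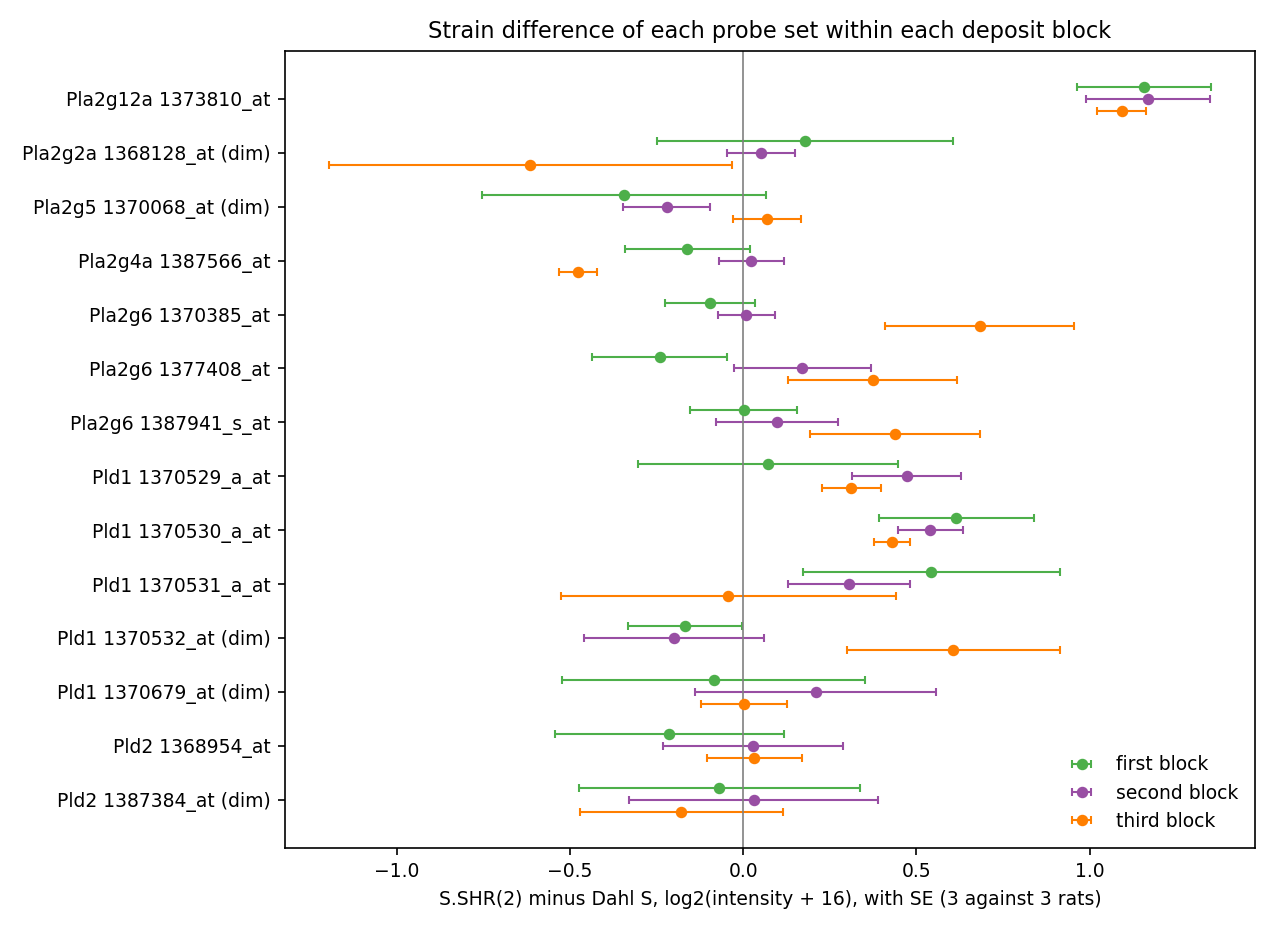
Difference of the strains, S.SHR(2) minus Dahl S on the log2 scale, for the 14 probe sets within each of the 3 deposit blocks, with the untested ones marked dim; points are differences of means of 3 rats and bars are their standard errors. Pla2g12a stays between 1.09 and 1.17, while Pla2g4a reaches -0.48 and Pla2g6 1370385_at 0.68 in the third block.

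Pla2g6, the calcium-independent enzyme that remodels membrane phospholipids, was lower in the third deposit block than in the first by all 3 of its probe sets. The probe set 1387941_s_at read 186.9 to 245.9 in the first block, 211.0 to 319.9 in the second and 84.3 to 183.5 in the third, with means of 224 ± 27.02, 276 ± 38.7 and 134 ± 32.9 (SD, n = 6 each). Its 6 arrays of the third block all lay below the other 12, a pattern seen for 1073 probe sets, or 5.76%. Relative to the first block it changed by 0.28 and -0.71 on the log2 scale (limma adjusted p = 4.1e-06). The probe set 1377408_at changed by 0.42 and -0.59 (adjusted p = 2.0e-05), and 1370385_at by 0.37 and -0.42 (adjusted p = 3.3e-04). With the third block set against the first alone, the adjusted p-values were 1.1e-04, 0.0021 and 0.021 in that order. That contrast was lower for 20.4% of all probe sets tested and higher for 20.7%. The rise in the second block passed for 1377408_at only (adjusted p = 0.042). These contrasts pool the strains. For 1370385_at Dahl S averaged 269.9 ± 31.6 in the first block and 151.2 ± 27.8 in the third, and S.SHR(2) 250.8 ± 28.8 and 251.4 ± 65.7 (SD, n = 3 each). The rise of the injured tubule markers and the fall of the summed kidney markers, as deposited, stood in the same block. By gene, after quantile normalisation, the kidney markers were split there, with 2 of 8 lower and 2 higher than in the first block. Of the 2 higher, Slc12a3 kept its direction as deposited (0.78), and Umod turned from 0.23 to -0.20. The part of these markers in the result for Pla2g6 was not tested.

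Strain differences of Pla2g6 were small over all rats. They were 0.20 ± 0.187, 0.10 ± 0.218 and 0.18 ± 0.214 (SE, log2) for 1370385_at, 1377408_at and 1387941_s_at. Each lay below or close to its error in this fit of strain alone. With the block as a covariate the errors were 0.116, 0.116 and 0.105, and the differences of 0.20 and 0.18 lay above theirs. Without Dahl S replicate 7 the differences in the fit of strain alone were 0.08, -0.01 and 0.05. Within the third block 1370385_at read 119.9, 172.8 and 160.9 in Dahl S and 267.3, 307.7 and 179.3 in S.SHR(2). The strains were separate there, by 0.68 ± 0.27, but differed by -0.10 ± 0.13 and 0.01 ± 0.082 in the first and second blocks. The test of that dependence gave an unadjusted p of 0.0058 and an adjusted p of 0.65 by limma. The other probe sets of the gene gave 0.37 ± 0.24 and 0.44 ± 0.25 in the third block, and for both the strains overlapped.

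Pld1 encodes the phospholipase D that small GTPases and protein kinase C activate on internal membranes, and lies on chromosome 2 like Pla2g12a. Its brightest probe set, 1370530_a_at, read 368.3, 247.2 and 359.5 in Dahl S and 428.4, 502.2 and 570.9 in S.SHR(2) in the first block. The second block held 357.6, 295.7 and 320.2 against 447.0, 510.3 and 472.6, and the third 292.8, 270.8 and 252.3 against 357.0, 380.7 and 368.2. In every block each S.SHR(2) rat was above each Dahl S rat of that block. Over all arrays the ranges overlapped, since 7 of the 9 S.SHR(2) rats lay above the highest Dahl S rat. The means were 307 ± 46.7 and 449 ± 72.5 (SD, n = 9 each), a difference of 0.53 ± 0.107 (SE) or 1.44-fold, again a description.

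Within the blocks that difference was 0.61 ± 0.22, 0.54 ± 0.093 and 0.43 ± 0.052, and the test of strain by block did not pass (limma adjusted p = 0.92). The level of 1370530_a_at differed between the blocks. It stood -0.03 and -0.35 from the first block in the second and the third (adjusted p = 0.0064, and 0.0051 for the third against the first alone), and this was the other called change among the 9 probe sets beside those of Pla2g6.

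The other probe sets of Pld1 showed less. For 1370529_a_at the intensity was 117.5 to 168.5 with a median of 141.0 in Dahl S, and 87.3 to 223.5 with a median of 189.0 in S.SHR(2). Its lowest S.SHR(2) value belonged to replicate 1, the array of the highest GAPDH ratio, and 6 of the 9 S.SHR(2) rats lay above every Dahl S rat. The strain difference was 0.29 ± 0.129, with 0.07 ± 0.38, 0.47 ± 0.16 and 0.31 ± 0.084 by block. The strains were separate in the second and the third block and overlapped in the first.

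For 1370531_a_at the Dahl S values were 78.9, 144.7 and 205.8 in the first block, 134.8, 199.2 and 164.5 in the second, and 80.9, 96.5 and 252.5 in the third. Those of S.SHR(2) were 192.1, 181.8 and 230.5, then 220.0, 177.5 and 227.4, then 132.7, 127.0 and 96.8. The highest of all 18 was a Dahl S rat, and the strains overlapped in every block, with a difference of 0.27 ± 0.204 overall. The remaining probe sets, 1370532_at and 1370679_at, were dim, with 9.22 ± 3.99 against 10.5 ± 7.53 and 10.2 ± 6.88 against 10.5 ± 6.82 (SD, n = 9 each). They were not tested and showed no separation, so 3 of the 5 probe sets of Pld1 could be set beside each other.

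Pld2 encodes the phospholipase D of the plasma membrane, which has a high basal activity. The probe set 1368954_at read 21.0 to 60 with a median of 44.0 in Dahl S and 24.3 to 57.3 with a median of 38.3 in S.SHR(2). The means were 42.7 ± 12.95 and 38.7 ± 9.62 (SD, n = 9 each), a difference of -0.05 ± 0.149, whose sign turned under other settings (-0.09 to 0.03). The level did not pass the block test (limma adjusted p = 0.12). The probe set 1387384_at was dim, at 21.4 ± 9.52 and 18.6 ± 10.3. Neither probe set of Pld2 separated the strains within a block. Pld1 had more probe sets in which this could be seen, so the genes are not compared by it.

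**Figure D3:**
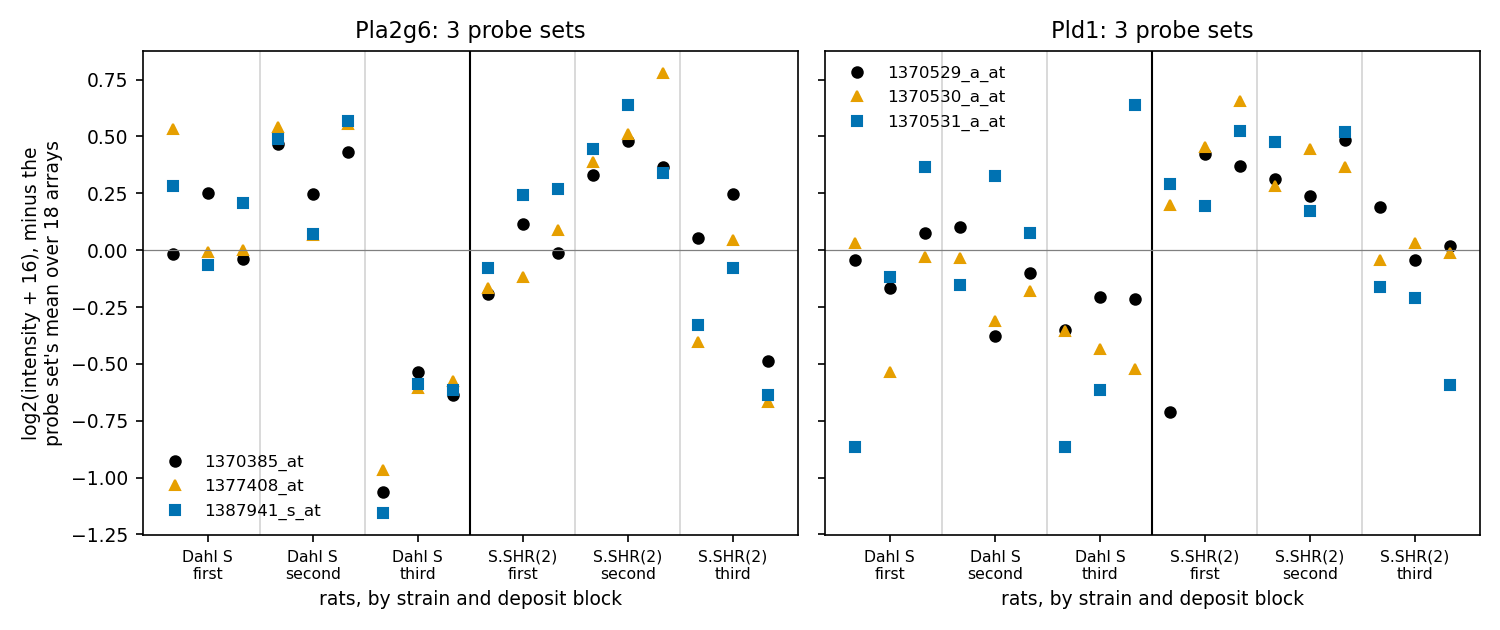
Log2 values of the tested probe sets of Pla2g6 and Pld1 in each of the 18 rats, each probe set centred on its own mean over all arrays, with rats ordered by strain and then by deposit block. The 3 probe sets of Pla2g6 lie close together in most rats and are lowest on average in the third block, below their mean in all 3 Dahl S rats there, while those of Pld1 part from each other in single rats.

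The probe sets of a gene were compared over the 9 rats of each strain apart, which gave 14 relations over 7 pairs. Of these 7 passed an exact permutation test after Benjamini-Hochberg adjustment, all 6 of Pla2g6 and 1 of Pld1. The correlations of Pla2g6, with r from 0.827 to 0.975, include the difference between the blocks. After the mean of each strain in each block was taken off (n = 18, permutations within those cells), 1387941_s_at correlated with 1377408_at (r = 0.750, rho = 0.769, adjusted permutation p = 0.038) and 1370385_at (r = 0.723, rho = 0.676, adjusted permutation p = 0.049). Without the 2 arrays farthest from the median, r was 0.715 and 0.548. The remaining pair, 1370385_at with 1377408_at, gave r = 0.577 and an adjusted permutation p of 0.13.

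For Pld1 the brightest probe set correlated with 1370531_a_at in S.SHR(2) (n = 9, r = 0.783, exact permutation p = 0.013, adjusted 0.026). There rho was 0.700 (exact permutation p = 0.043, adjusted 0.076), and r was 0.744 without the 2 farthest arrays. In Dahl S the same pair gave r = -0.168 and rho = -0.217, and after strain and block means were removed r = -0.267 over the 18 arrays. With 1370529_a_at the brightest probe set gave r = 0.585 after that removal (adjusted permutation p = 0.13). So no pair of Pld1 passed once the block means were removed, whereas 2 pairs of Pla2g6 did, and the difference between the genes was not tested.

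Pld1 and Pla2g12a are far apart on chromosome 2. In GRCr8 Pld1 spans 112777820 to 112975857 and Pla2g12a 221110722 to 221126966, a distance of 108 Mb, and they are the 207th and 605th of 691 tested genes there. The files name no build of their own, so these positions belong to the gene table. Of the 10 tested genes nearest Pla2g12a, 0 were called for strain by limma, 2 had an unadjusted p under 0.05 (Gar1 and Cfi), and their differences ran from -0.81 to 0.30. Casp6, a caspase and its next neighbour upward, differed by 0.15 ± 0.162 (SE). On the other side Cfi, the complement factor I gene, averaged 122 ± 85.7 in the 9 Dahl S rats against 52.3 ± 22.2 (SD) in the congenic ones. Its difference was -0.81 ± 0.320, opposite to Pla2g12a, and it was called only with the block as a covariate (adjusted p = 0.027). Enpep, the gene of aminopeptidase A, which cleaves angiotensin II, differed by 0.23 ± 0.110 and had 0.034 in that fit.

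Around Pld1, 0 of 10 genes were called either, though 2 reached an unadjusted p under 0.05 and stood near the threshold. Ect2, which acts in cell division, was higher in S.SHR(2) by 0.58 ± 0.122 (adjusted p = 0.070), at 60.9 ± 12.4 against 95.6 ± 18.8. Eif5a2, a translation factor, was lower in S.SHR(2), with a difference of -0.48 ± 0.099 (adjusted p = 0.069), at 51.6 ± 7.10 against 31.2 ± 4.66, and its strains did not overlap. With the block as a covariate both passed, at 0.010 and 0.0040. The genes next to Pld1, Fndc3b and Tnik, differed by 0.03 ± 0.069 and -0.09 ± 0.171.

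**Figure D4:**
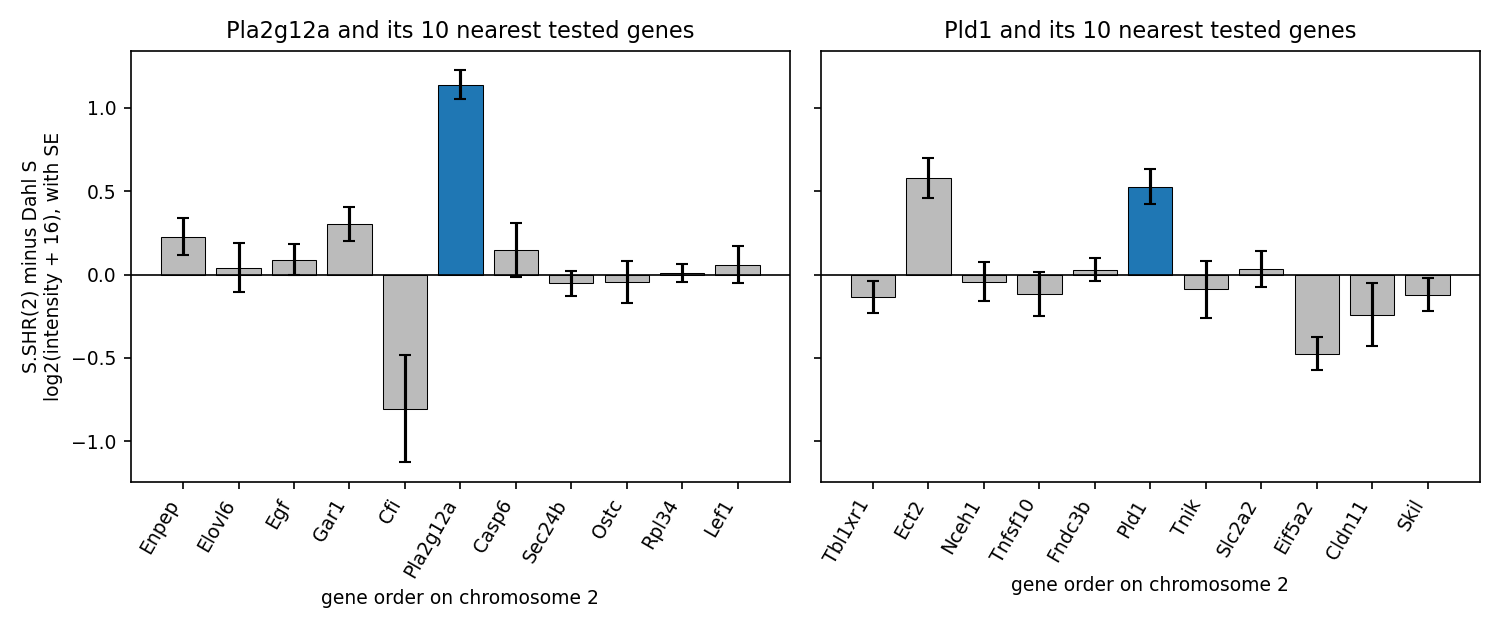
Strain difference (S.SHR(2) minus Dahl S, log2, with standard error) of the 5 nearest tested genes on each side of Pla2g12a and of Pld1, in gene order along chromosome 2. Pla2g12a, selected with its strain difference known, is at 1.14, and its neighbours, taken by position, run from -0.81 to 0.30. Nothing is read from that gap. Ect2 at 0.58 near Pld1 is as high as Pld1 at 0.53.

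The genes closest in pattern to Pla2g12a were sought over the 18 arrays after each strain's mean was taken off. They were Ap5z1, Gorasp2, Mmp11, Arhgap39 and Ltv1, with Pearson's r of 0.705, 0.705, 0.705, 0.702 and 0.688, the highest 5 of the 10483 genes tested. With the block means taken off as well these were 0.765, 0.742, 0.861, 0.817 and 0.849. None lies on chromosome 2, and their own strain differences were -0.01 to 0.28. For the brightest probe set of Pld1 they were Fam107a (r = 0.852), Stx4 (0.833), Slc7a12 (0.821), Hecw2 (0.798) and Zc3h13 (0.796). Taking off the block means changed those of Pld1 to 0.772, 0.580, 0.655, 0.539 and 0.735. Arrays of a block share what sets that block apart, so these values are descriptions.

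The genes around the phospholipases were read from 8 lists of 125 genes. Of these, 111 were on the array and 84 were bright enough to be tested, each by its brightest probe set. For strain limma called 0 of the 84, with 42 of them higher in S.SHR(2). An unadjusted p under 0.05 was reached by 0, against 4.02% of all probe sets tested. With the block as a covariate 0 were called. In that fit 7 of the 84 had an unadjusted p under 0.05, a share no higher than the 9.27% of all probe sets tested. The block was called for 55 of the 84, against 50.1% of all probe sets. With the third block set against the first alone, 21 were lower and 25 higher, against 20.4% and 20.7% of all probe sets tested. The strain difference depended on the block for 0, with 5 at an unadjusted p under 0.05, against 6.56% of all probe sets tested. So the 8 lists held block differences in both directions and no strain call. In what follows, changes are log2 differences of the third block from the first, and a gene is called lower or higher where that contrast passed in limma (adjusted p under 0.05). Adjusted p-values printed for list genes are those of the test over the 3 blocks. Among the list genes that either test called, the direction turned with the scaling for Pnpla8 alone, which is not among the 46.

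Among the other phospholipase A2 enzymes 6 of 11 tested were called over the blocks, 1 of them lower in the third block and 0 higher. Prdx6, a peroxiredoxin with phospholipase A2 activity, fell from 1269.8 ± 193 in the first block to 601 ± 67.2 in the third, with 1162 ± 101 in the second (SD, n = 6 each; -1.08, adjusted p = 5.2e-09). The patatin-like lipases Pnpla3 and Pnpla8 stood 0.45 and 0.37 above the first block in the second, where that contrast passed, and -0.06 and -0.02 from it in the third. Plaat3 was lower in the second block (-0.24) and stood at -0.16 in the third, and Pnpla6 (-0.27) and Pafah1b3 (0.30) passed neither contrast. Of the further phospholipase D family, 3 were tested. Gpld1, which releases proteins from their lipid anchors, fell from 157 ± 14.7 to 61.9 ± 8.56 (-1.12, adjusted p = 2.7e-10). Pld4, a nuclease of endolysosomes in immune cells, rose from 39.3 ± 5.80 to 88.8 ± 18.1 (0.96), beside the rise of the macrophage markers, whose part in it was not tested.

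Of the 19 regulators of phospholipase D, 12 were called over the blocks, and 8 were higher and 2 lower in the third block. The higher ones were the small GTPases Arf1 (0.28), Arf3 (0.51), Arf5 (0.58) and Rhoa (0.28), the kinases Prkcb (0.69) and Prkcd (0.31), the lipid kinase Pip5k1b (0.57) and Cyth2 (0.24), an exchange factor for Arf proteins. Arf3 read 614 ± 61.9, 631 ± 55.6 and 886 ± 69.9 over the blocks. Cyth3, of the same family as Cyth2, was lower (-0.46), as was Rala (-0.38). Arf4, Arf6 and Pip5k1c stood at -0.09, 0.22 and 0.17, where the contrast did not pass. The annexins, which bind phospholipid and can keep phospholipase A2 from it, made up the 3 of 4 tested genes of their list that were higher. Anxa1, the best known of them, went from 1040.25 ± 46.4 to 1679.98 ± 312 (0.66, adjusted p = 2.3e-05), with Anxa5 at 0.52 and Anxa2 at 0.40.

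In the cyclooxygenase branch, which turns arachidonic acid into prostaglandins, 8 of 10 were called, 5 lower and 3 higher in the third block. Ptgs2, the inducible cyclooxygenase, was at 132 ± 31.03 in the first block, 31.1 ± 8.04 in the second and 27.1 ± 16.1 in the third (-1.76, adjusted p = 1.9e-08). Ptgs1, the constitutive form, fell from 171 ± 50.3 to 82.9 ± 12.0 (-0.87), and the synthase Ptges was lower too (-0.34). Hpgd, which degrades prostaglandins, and their transporter Slco2a1 changed by -0.61 and -1.05. Higher were Ptgds, a prostaglandin D synthase, from 223 ± 87.5 to 655 ± 109 (1.54), the receptor Ptger3 (0.73) and the thromboxane synthase Tbxas1 (0.58). Both cyclooxygenases were already lower in the second block, at -1.65 for Ptgs2 and -0.94 for Ptgs1.

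In the lipoxygenase branch 4 of 6 were called, 2 lower and 2 higher. Alox15, a 15-lipoxygenase, read 206 ± 137 in the first block against 20.2 ± 14.4 and 18.2 ± 7.01 in the others (-2.38, adjusted p = 1.6e-06). Lta4h, which makes leukotriene B4, was lower (-0.36). Alox5ap, the partner protein of 5-lipoxygenase, rose by 0.78 and the epoxide hydrolase Ephx1 by 0.26.

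The enzymes that return fatty acids to lysophospholipids were listed together with acyl-CoA synthetases, the Acsl genes. This list had 9 of 14 called over the blocks, and 5 were lower and 4 higher in the third. Lpgat1 went from 615 ± 77.7 to 951 ± 84.2 in the second block and 429 ± 60.7 in the third (-0.53, adjusted p = 1.0e-08). Agpat5 (-0.78), Lpcat3 (-0.43), Acsl1 (-0.32) and Agpat2 (-0.25) were lower too. Acsl3 (0.34), Agpat4 (0.37), Agpat3 (0.28) and Agpat1 (0.45) were higher. Mboat7 and Mboat1 stood at -0.18 and 0.19, where the contrast did not pass.

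Of the genes that make or use phosphatidic and lysophosphatidic acid 11 of 17 were called over the blocks, and 5 were lower and 4 higher in the third. The receptor Lpar1 fell from 265 ± 45.8 to 144 ± 24.6 (-0.82, adjusted p = 2.4e-06). The diacylglycerol kinases Dgkg and Dgkz were lower (-0.78 and -0.68), as were the phosphatases Plpp1 and Plpp3, both at -0.25. Enpp2, or autotaxin, which makes lysophosphatidic acid outside the cell, rose from 64.9 ± 11.2 to 126 ± 22.8 (0.84). Lpin2 (0.64), Cds1 (0.54) and Dgkq (0.37) were higher too. Dgka was higher in the second block (0.41) and stood at 0.09 in the third, and Dgkh, at -0.11 there, passed neither contrast. Of the injured tubule markers over the same blocks, Havcr1, made by damaged proximal tubules, read 23.3 ± 10.5, 259 ± 121 and 582 ± 279.7.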

How the data were processed

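The deposited values were intensities, 1 for each probe set and array, which the authors made from Affymetrix arrays by software and scaling not given in the sources used here. Per the labels' protocols, total RNA of whole kidney was labelled and hybridised to 1 array per rat. The 57 control probe sets were left out. Values were taken as log2(intensity + 16) and quantile normalised between arrays, because the array medians spanned 0.235. The dimmest 40% (mean under 5.48) were left out of the tests, and folds, on this scale, understate changes of dim genes.

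Tests were run with limma 3.58.1 (R 4.3.3), lmFit and eBayes with trend, two-sided and adjusted by Benjamini-Hochberg over 18625 probe sets. The strain fit was tested on simulated data with strain changes and no block differences. Recovery of block and strain-by-block differences was not tested. Strain was fitted alone, the deposit block with strain in the model, and strain by block last. Contrasts of the third and the second block with the first, from the same fit, were added after the data were seen. Replicates are rats told apart by their title codes, so p-values cover the spread between rats, and their number limits the precision. Replicate numbers pair nothing. The platform annotation named the probe sets (20826 name 1 gene, 436 several, 9780 none), and 20758 matched the GRCr8 gene table. No detection calls were used here.

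The members and lists were chosen with earlier results of these data known. Named were all probe sets of the 7 genes, 5 tested neighbours on each side of Pla2g12a and Pld1, the 5 genes most correlated with each, and list genes called in any fit or contrast. Alternatives were other pseudocounts, filters, scalings and eBayes settings, array weights, the block as a covariate, each block alone, and each rat left out. Figures were drawn with matplotlib 3.10.9.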

Additional observations from a re-analysis of the deposited data

Results flagged for a closer look

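Among the 28 sets of 9 rats of 1 strain, 1 for each probe set and strain, 2 held a rat set apart from the others by a gap over Dixon's critical value for 9 values, which chance passes in about 1 set in 20. Pla2g5 1370068_at read 11.9 in Dahl S replicate 3, below the other Dahl S rats, with a gap of 0.535 of the log2 range, on a probe set too dim to be tested. Pld1 1370529_a_at read 87.3 in S.SHR(2) replicate 1, with a gap of 0.558, and the other 8 S.SHR(2) rats lay at 147.3 or more. That array had the highest GAPDH 3′/5′ ratio, 2.51, whose part in the value was not tested. Without it the strain difference of this probe set was 0.39, against 0.29.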

How the results depend on the processing

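The strain difference of Pla2g12a kept its direction under every alternative run, from 0.88 with a pseudocount of 64 to 1.26, and from 1.09 to 1.17 with each rat left out. The gene was selected on these arrays and its strains were separate over all of them, so nothing is read from the kept direction. The number of probe sets called for strain, 23, became 41 with array weights, 92 with the block as a covariate, 5 within the first block and 46 within the third, and ranged from 16 to 28 with each rat left out. Strain by block, with 1 call, gave 2 with array weights, 5 without the 2 arrays of highest GAPDH ratio and 1 to 3 with each rat left out (3 with S.SHR(2) replicate 1 left out, and 2 for replicate 2, 5 or 6 of Dahl S). The count for deposit blocks, 9336, was 8633 to 9574 with each rat left out and 7658 for the third block against the first alone, a contrast added after seeing the data. Of the relations between probe sets of a gene 7 passed, and 2 when strain and block means were removed, a setting chosen after seeing the data that takes off the shifts the blocks share. For the other changes the cause was not tested. Strain differences of Pla2g2a, Pla2g6 1377408_at, Pld1 1370532_at and 1370679_at and Pld2 1368954_at crossed 0 when 1 rat was left out. No paired analysis was possible because the labels give no shared replicate numbers. On the deposited scale the summed kidney markers fell in the third block, while after quantile normalisation Umod and Lrp2 stood 0.23 and 0.12 above the first block and without it at -0.20 and -0.09. Intensity limits the 5 dim probe sets, for which a difference could not be tested.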
